A study of Mus musculus with 8 samples.

Results

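The genes described here are the 5 Serpina1 genes (Serpina1a, Serpina1b, Serpina1c, Serpina1d and Serpina1e) and 4 Serpina3 genes (Serpina3c, Serpina3k, Serpina3m and Serpina3n) of the mouse. They were chosen by symbol: every Ensembl gene of the count files that maps to one of these 9 symbols was taken and its transcript counts were summed, which gave 9 of the 27453 genes listed. The files list 62 serpin genes in all. The samples are 8 mouse livers of C57BL/6JN, an inbred strain, read by nanopore direct RNA sequencing, in which native polyadenylated RNA molecules pass through a pore without a cDNA copy. There are 4 libraries titled O and 4 titled Y, and in each set replicates 1 and 2 are males and replicates 3 and 4 are females, so each of the 4 groups of title and sex holds 2 libraries. The labels name no mutant allele and no agent in any group, and the treatment field is identical in all 8 samples.

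The labels disagree about age if the title letters O and Y are read as old and young. By the age field the mice titled O were 12 weeks old and those titled Y 80 weeks. The series design puts its young animals near 2 months of age and its old ones near 18 months, without naming a title letter. The groups are therefore called by title, and folds are O-titled over Y-titled or females over males. The files carry a different animal number for each library, so the libraries are separate animals. Levels are given as scaled CPM, counts set to a common depth over the tested genes after scaling by the trimmed mean of M values (TMM). Folds, standard errors (SE) and adjusted p values come from edgeR's quasi-likelihood test over 6759 genes with Benjamini-Hochberg adjustment, and a gene is called at 0.05 or less.

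Serpins are protease inhibitors that carry an exposed reactive loop as bait. When the target protease cuts the loop, the serpin changes shape and the protease stays bound and inactive. Hepatocytes secrete large amounts of Serpina1, or alpha-1 antitrypsin, whose best-known target is the elastase of neutrophils. People have a single SERPINA1 gene and a single SERPINA3 gene, while mice have several copies of each, and the copies are known to differ in the loop and so in the proteases they bind. Serpina3 genes are the counterparts of human alpha-1 antichymotrypsin, an inhibitor of cathepsin G and mast cell chymase. Serpina3k has been studied as a kallikrein-binding protein of liver and plasma, and Serpina3n as an acute phase inhibitor that rises with inflammation and glucocorticoids.

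All 9 genes lie on chromosome 12 of build mm10 and are protein-coding. The Serpina1 genes are Serpina1a (ENSMUSG00000066366, chr12:103853589-103863562), Serpina1b (ENSMUSG00000071178), Serpina1c (ENSMUSG00000079015, chr12:103894926-103904887), Serpina1d (ENSMUSG00000071177) and Serpina1e (ENSMUSG00000072849, chr12:103946931-103958975). The Serpina3 genes are Serpina3c (ENSMUSG00000066361, chr12:104146382-104153870), Serpina3k (ENSMUSG00000058207), Serpina3m (ENSMUSG00000079012) and Serpina3n (ENSMUSG00000021091, chr12:104406729-104414329). The Serpina1 genes and Serpina3c are on the minus strand and Serpina3k, Serpina3m and Serpina3n are on the plus strand (GENCODE M21). The copies are close enough in sequence that the way reads are shared between them can matter to the values below. Coding sequences of the Serpina1 genes were 96.3% to 98.5% identical over the 10 pairs, and Serpina1a and Serpina1c, the closest pair, differed at 19 of 1239 bases. Coding sequences of the Serpina3 genes were 82.7% to 91.1% identical over 6 pairs, Serpina3k and Serpina3m being the closest, and pairs across the clusters were 58.3% to 59.9% identical.

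The loop held more differences between the Serpina1 copies than the coding sequence at large. Over the 75 coding bases from the hinge of the loop onward, read from the GENCODE M21 transcripts, 18 positions differed among the 5 genes, or 24.0%, against 86 of 1239 or 6.94% over the whole coding sequence. The stretches are shown because the loop is the bait for the protease, and because they hold bases by which a long read can be assigned to a copy; capitals mark the positions that vary among the 5. They lie in exon 5 of the transcripts used, at chr12:103853756-103853830 for Serpina1a, chr12:103728323-103728397 for Serpina1b, chr12:103895093-103895167 for Serpina1c, chr12:103763761-103763835 for Serpina1d and chr12:103947099-103947173 for Serpina1e, all on the minus strand.
Serpina1a: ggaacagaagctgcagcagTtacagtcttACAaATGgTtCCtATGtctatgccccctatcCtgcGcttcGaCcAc
Serpina1b: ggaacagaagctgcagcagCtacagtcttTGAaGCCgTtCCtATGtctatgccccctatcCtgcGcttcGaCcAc
Serpina1c: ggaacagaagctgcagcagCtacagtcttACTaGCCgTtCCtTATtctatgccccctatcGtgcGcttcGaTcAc
Serpina1d: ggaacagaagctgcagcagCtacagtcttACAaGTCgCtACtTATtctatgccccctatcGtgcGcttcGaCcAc
Serpina1e: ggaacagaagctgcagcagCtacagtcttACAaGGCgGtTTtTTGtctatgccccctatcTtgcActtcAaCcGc
Between pairs the number of differing bases in this stretch ran from 5, for Serpina1c and Serpina1d, to 12, for Serpina1e with Serpina1a or with Serpina1c. Within the first 27 bases Serpina1a differed from each of the other 4 genes at 1 base, and those 4 had no difference among themselves.

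**Figure D1:**
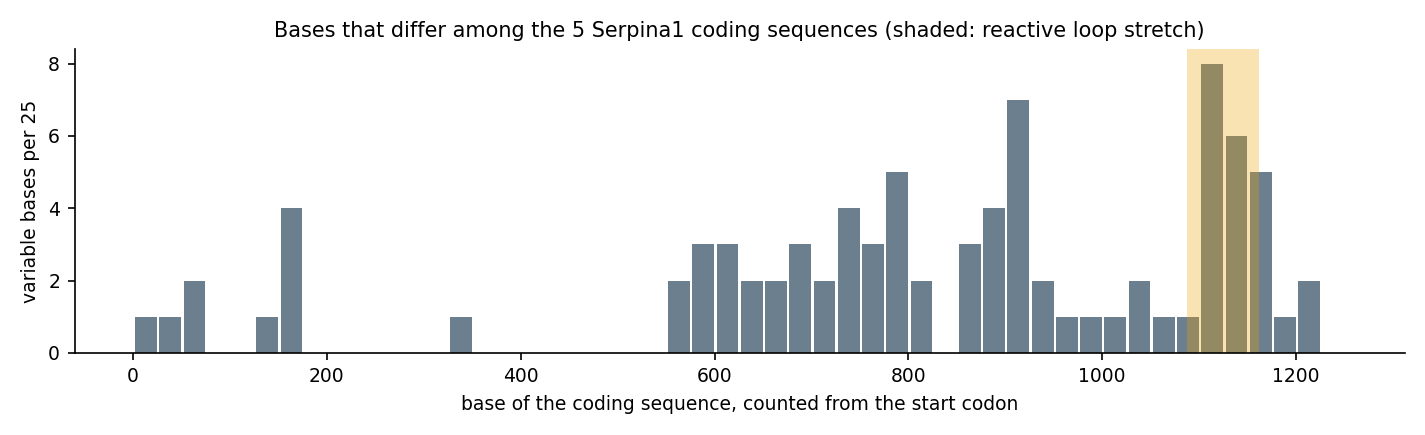
Number of bases that differ among the 5 Serpina1 coding sequences, in windows of 25 bases, against the base of the coding sequence counted from the start codon. The shaded stretch of 75 bases is the reactive loop region printed in the text, which holds 18 of the 86 variable bases.

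In Serpina3k, Serpina3m and Serpina3n the same region starts with the conserved hinge of the loop. The pattern of bases used to find the hinge was not found in frame in Serpina3c. The stretches of the 3 well-detected genes are shown because their levels parted from each other, and here capitals mark the 12 bases of the hinge. They lie in exon 5 on the plus strand, at chr12:104345269-104345352 for Serpina3k, chr12:104393769-104393852 for Serpina3m and chr12:104413448-104413531 for Serpina3n.
Serpina3k: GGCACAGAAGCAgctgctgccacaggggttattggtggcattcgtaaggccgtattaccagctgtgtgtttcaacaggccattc
Serpina3m: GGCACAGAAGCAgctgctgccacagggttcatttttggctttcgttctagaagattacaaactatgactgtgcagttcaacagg
Serpina3n: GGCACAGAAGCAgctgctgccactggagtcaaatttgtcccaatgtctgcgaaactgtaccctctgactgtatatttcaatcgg
The hinge bases were identical in the 3 genes, whose sequences differ further on. Most of these hinge bases were fixed by the pattern used to find them.

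The gene models overlap in places that bear on the counts. Serpina3m spans chr12:104338486-104394257 and so contains Serpina3k, at chr12:104338486-104346144, because the transcript ENSMUST00000101078 of Serpina3m starts at the start of Serpina3k. Serpina1b spans chr12:103728156-103830373 and contains Serpina1d, at chr12:103763594-103773592, on the same strand. How the authors shared reads among such transcripts was not given in the sources used here, so single members are uncertain where copies could trade reads, and the totals of each cluster are given beside them.

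Upstream sequence was nearly the same in all 5 Serpina1 genes. Stretches of 120 bases upstream of the RefSeq start sites (GRCm38.p6) were 91.7% to 97.5% identical between pairs. They ended 4 to 15 bases before the start site in Serpina1a to Serpina1d and 66 bases before it in Serpina1e. Each stretch was cut to end at the letters GTTAATATTCAC, which resemble the site of HNF1, a hepatocyte transcription factor. Of 32851 RefSeq promoters of 300 bases, 5 or 0.0152% held these letters on either strand, and they were the 5 Serpina1 promoters; the letters were chosen after reading these promoters. The shorter letters GTTAAT were in 7.10% of all promoters and in 6 of the 7 members that the table holds. The 6 are Serpina3c and the 5 near-identical Serpina1 promoters, where the longer letters begin with GTTAAT and so fixed the match. The palindrome TTCNNNGAA, bound by STAT factors, was in 8.30% of all promoters and in 0 of those 7. The stretches of Serpina1c and Serpina1e, which differ at 3 of 120 bases, are shown with that of Serpina1b because Serpina1e had far lower levels in females than either of the others, which overlapped there; capitals mark the letters GTTAATATTCAC, and the strand is minus. They lie at chr12:103738204-103738323 for Serpina1b, chr12:103904966-103905085 for Serpina1c and chr12:103956964-103957083 for Serpina1e.
Serpina1b: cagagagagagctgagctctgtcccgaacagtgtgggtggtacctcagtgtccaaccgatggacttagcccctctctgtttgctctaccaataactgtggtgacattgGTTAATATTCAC
Serpina1c: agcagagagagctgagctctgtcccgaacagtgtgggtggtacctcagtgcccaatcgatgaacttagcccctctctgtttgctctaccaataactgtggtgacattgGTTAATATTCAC
Serpina1e: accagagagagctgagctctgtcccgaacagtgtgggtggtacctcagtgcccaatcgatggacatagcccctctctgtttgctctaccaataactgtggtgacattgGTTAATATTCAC
In GENCODE M21 the stretch of Serpina1e lies before the first exon of ENSMUST00000085054 and inside the first intron of ENSMUST00000122229, to which between 67.4% and 79.0% of the reads of Serpina1e were assigned. The median length of those reads was 1042.5 to 1396 bases in the 8 libraries, for a transcript of 1575 bases. On ENSMUST00000085054, of 1295 bases, it was 1400 to 1407. Where the reads of Serpina1e start was not tested.

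Libraries held between 545171 and 2593200 mapped reads, and 3 reads, the floor used here, correspond to between 1.16 and 5.50 CPM. The sexes matched their labels: Xist stood at 28.7 to 37.1 scaled CPM in the females and at most 1.15 in the males, and Ddx3y had no read in any female. Summed levels of 8 hepatocyte markers were 74362 to 100113 scaled CPM in O-titled and 76146 to 118585 in Y-titled libraries. RNA of these bulk livers comes from all their cells, and fewer cells of a type and less RNA per cell cannot be told apart. Counts of same-sex libraries of 1 title differed by more than sampling noise, with a chi-square per degree of freedom of 3.92 to 10.3.

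The members were among the most abundant liver messages. Together they took between 2.35% and 5.61% of mapped reads and between 78.6% and 91.0% of all serpin reads. By mean scaled CPM over the 8 libraries, Serpina1c ranked 18, Serpina3k 21, Serpina1b 22, Serpina1e 25, Serpina1a 30 and Serpina1d 37 among 27453 genes. Serpina3m ranked 365 and Serpina3n 478, and Serpina3c ranked 9277. Per kilobase of mean read length the order was the same but for Serpina1b and Serpina3k, which changed places. The means of neighbours in this order, such as 7435 ± 1897 scaled CPM for Serpina1c and 6794 ± 3828 for Serpina3k (SD, n = 8), lay within their spread over libraries, while Serpina3m at 415 ± 147 lay far below the 6 abundant members.

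**Figure D2:**
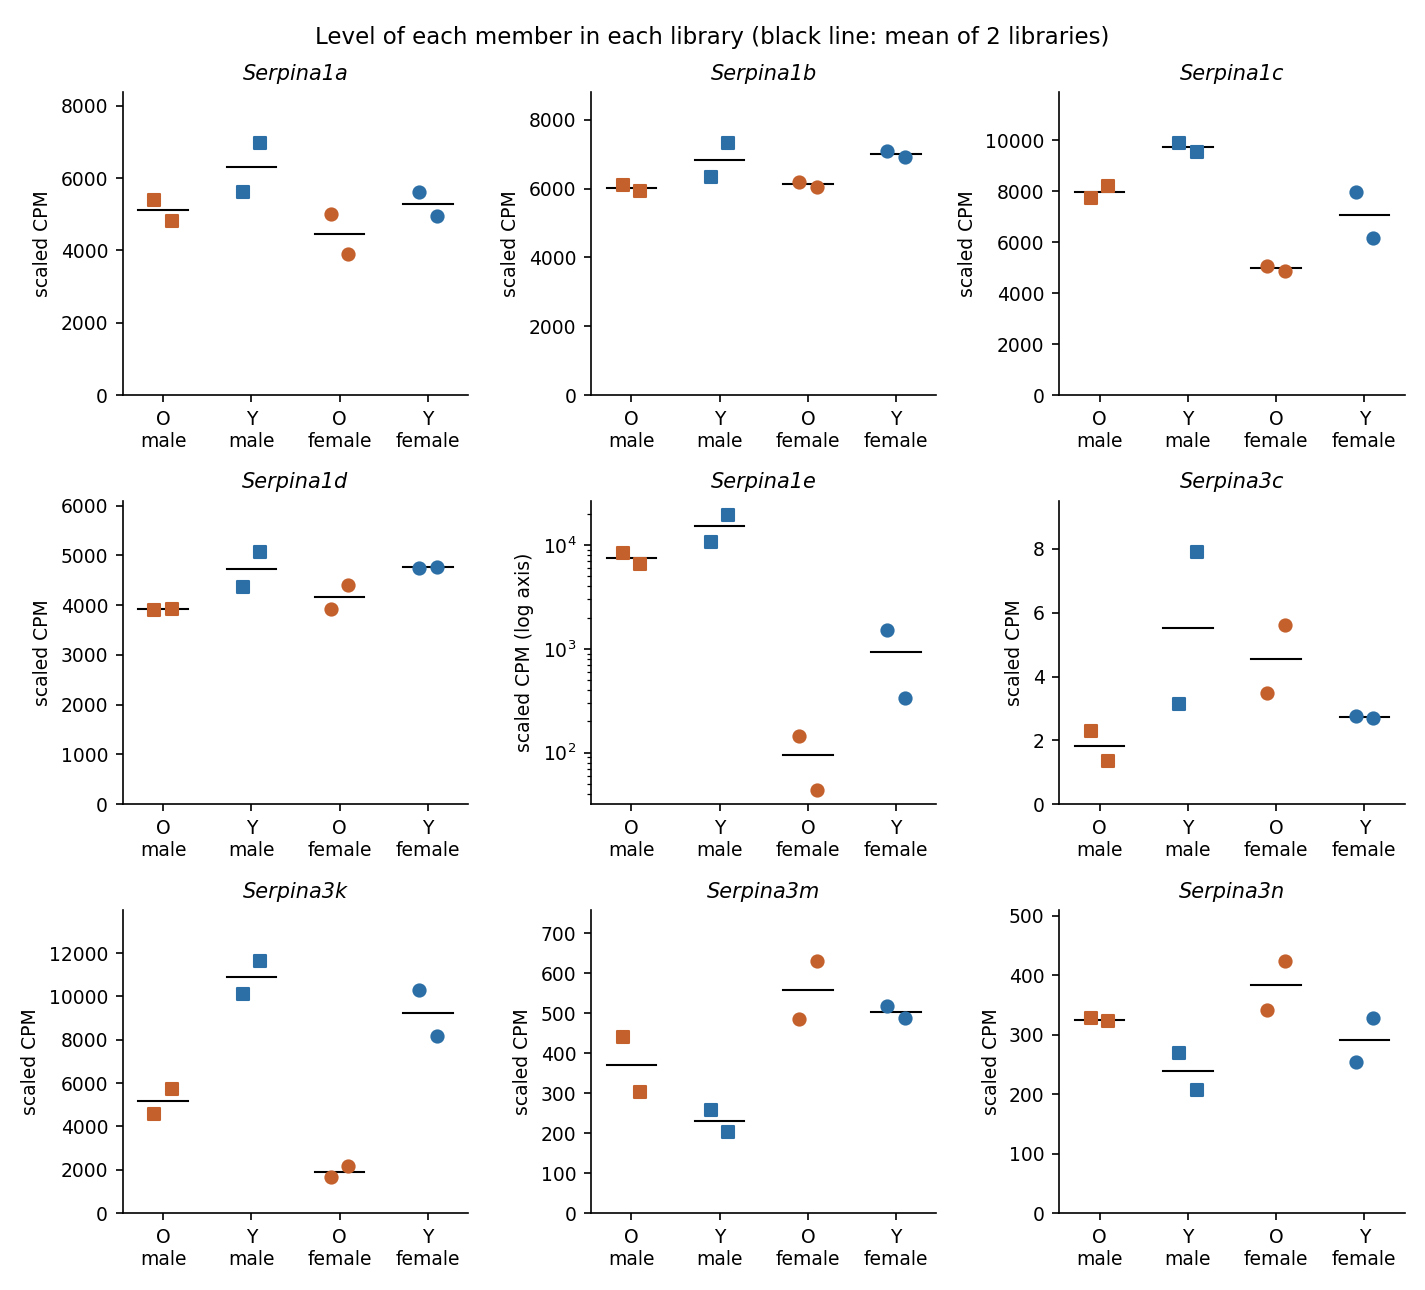
Scaled CPM of each of the 9 members in the 8 libraries, by title (orange O, blue Y) and sex (squares males, circles females), with a line at the mean of each pair; the axis of Serpina1e is logarithmic and the others start at 0. Serpina3k stood apart between the O and Y titles, from 1649.5 to 5721 against 8162 to 11658, and Serpina1e between the sexes.

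Of the 9 members 8 had enough reads to be tested. In O-titled against Y-titled libraries with sex as a covariate, 1 of the 8 was called and it was lower, while of all tested genes 1.92% were called lower, 2.09% higher and 4.01% in either direction. The median log2 fold of the 8 was -0.25, against -0.001 over all tested genes. Between females and males, 1 member was called higher and 1 lower, against 1.81% and 1.15% of all tested genes, 2.96% together. Within males 1 member was called lower (background 0.621% lower, 0.636% higher, 1.26% together). In the same way, within females 2 were called lower (background 2.74% lower, 5.47% together), and 1 member had a change that was more negative in females than in males (background 0.237%, and 0.385% with either sign). No member was higher in all O-titled than in all Y-titled libraries, as 4.1% of tested genes were. Serpina1b and Serpina3k were lower in all O-titled than in all Y-titled libraries, as 4.62% of tested genes were.

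The Serpina1 cluster as a whole was read more in males and somewhat more in Y-titled mice. Its total took 3.17% and 2.77% of mapped reads in O-titled males and 3.41% and 4.49% in Y-titled males. In females it took 2.14% and 2.01% in the O-titled and 2.64% and 2.25% in the Y-titled. All 4 females were below all 4 males, and within each sex both O-titled libraries were below both Y-titled libraries. With the 5 genes merged into 1 feature, the log2 fold was -0.70 with SE 0.117 for females over males and -0.41 with SE 0.117 for O-titled over Y-titled; as the members were chosen with earlier results known, no p is given for totals.

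Most of the difference between the sexes was in 1 copy. Serpina1e made up 22.5% to 40.4% of the Serpina1 reads in males and 0.225% to 5.63% in females. Without it, the other 4 genes together took 2.15% to 2.68% of mapped reads in males and 2.01% to 2.49% in females, ranges that overlap. In scaled CPM both females were below both males within each title. O-titled females stood at 20181 and 19242 against 23135 and 22881 in O-titled males. Y-titled females stood at 25440 and 22824 against 26204 and 28923 in Y-titled males. As percent of mapped reads the sexes lay apart in the O-titled livers only.

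**Figure D3:**
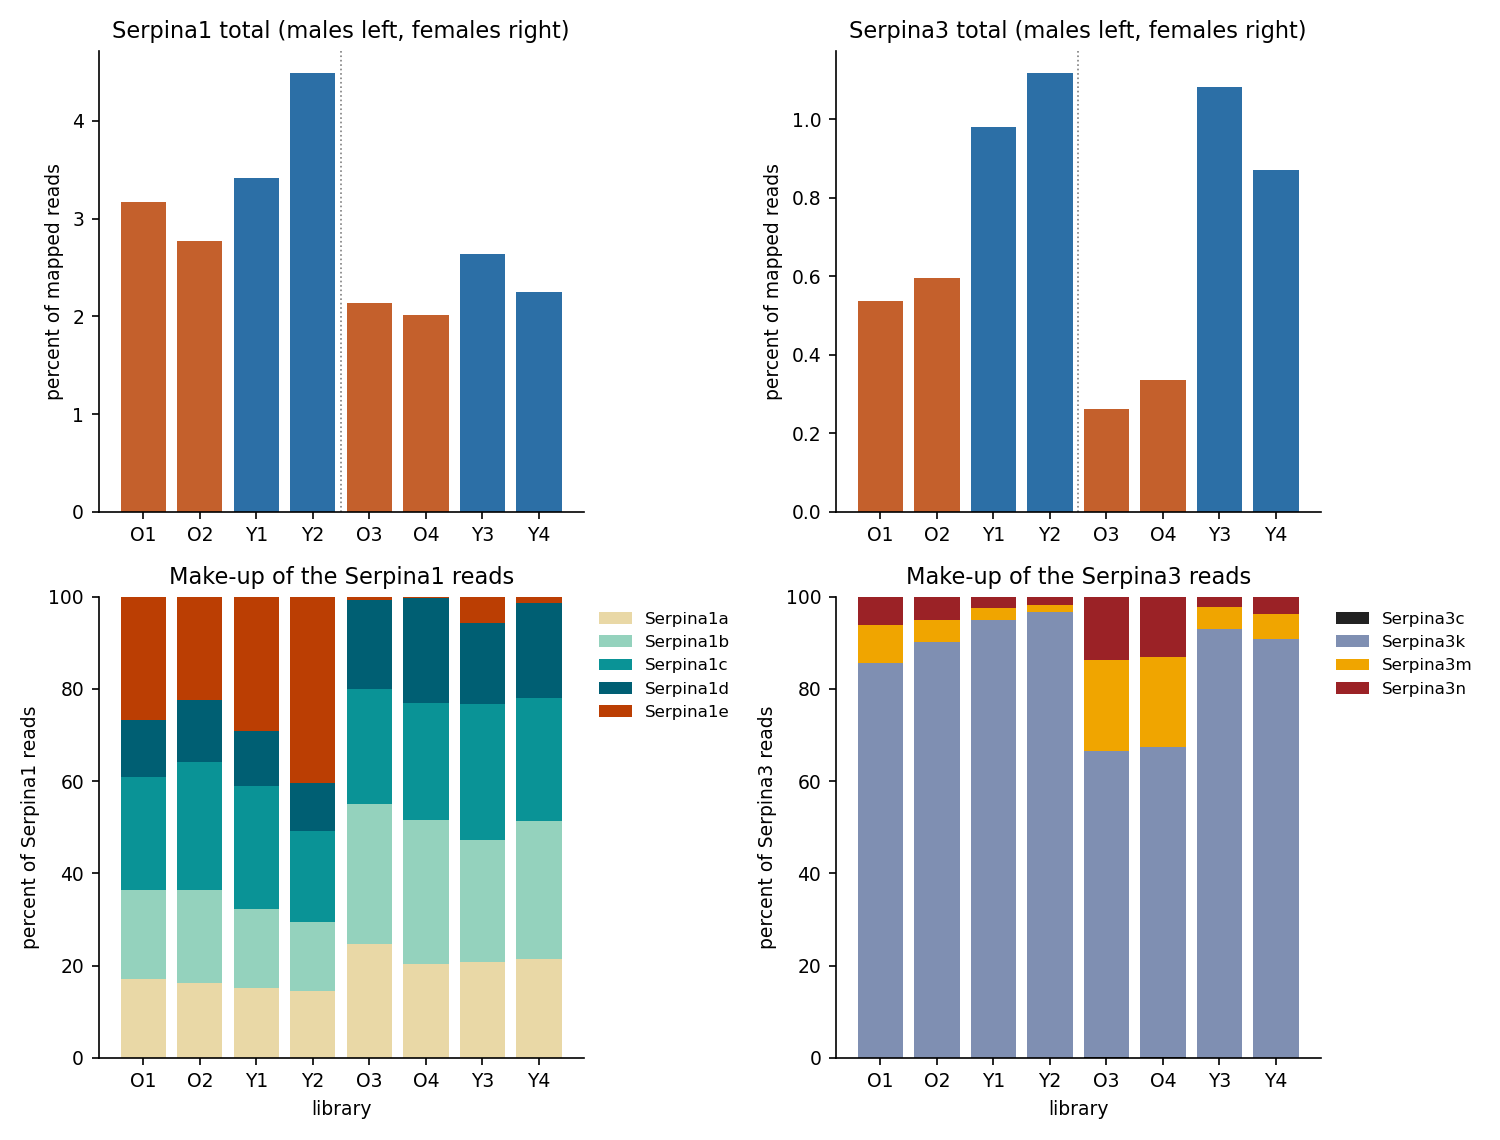
Percent of mapped reads taken by the Serpina1 and Serpina3 totals (upper bars, orange O and blue Y) and the share of each member in the reads of its cluster (lower bars), per library, with O1 to Y4 for title letter and replicate number and males left of the divide. Serpina1e fills 22.5% to 40.4% of the Serpina1 bars in males, and the Serpina3k share is smallest in the O-titled females.

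Serpina1e, the copy whose loop differed most from those of Serpina1a and Serpina1c, had the widest range of any member. It stood at 8478 and 6641 scaled CPM in O-titled males and at 10792 and 19569 in Y-titled males. In females it stood at 145 and 43.4 in the O-titled and at 1519 and 336 in the Y-titled. Every female was below every male, by 4.37 times between the highest female and the lowest male, and the highest library was 451 times the lowest. Female libraries still held 62 to 1653 reads assigned to the gene. Reads of its near-identical copies may be among them, since the handling of such reads is not known, and this was not tested.

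The log2 fold of Serpina1e for females over males was -5.15 with SE 0.956. The groups did not overlap, as for 3.37% of tested genes that were lower in all females, but the adjusted p was 0.0783 in edgeR and the gene was not called. DESeq2 gave an adjusted p of 1.3e-09 and limma voom 0.0378, and edgeR without Y-titled replicate 3, the female with the highest level, gave 0.0327. Libraries of the same sex and title differed among themselves: by 4.52 times in the Y-titled females, 3.34 times in the O-titled females and 1.81 times in the Y-titled males.

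Serpina1e also had lower values in the O-titled than in the Y-titled libraries of each sex, without passing the test. The log2 fold was -3.31 with SE 1.06 in females (adjusted p = 0.244, edgeR) and -1.01 with SE 0.954 in males (adjusted p = 0.84, edgeR). In females the 2 O-titled libraries were below the 2 Y-titled ones, and DESeq2 called the fold with an adjusted p of 0.013. The difference between the sexes in this fold was -2.30 with SE 1.38 and was not called (adjusted p = 0.778, edgeR). Single libraries moved these values: the fold in females was -1.84 without Y-titled replicate 3 and -4.40 without O-titled replicate 3, and the difference was -0.83 and -3.40. The fold in males was -0.51 without Y-titled replicate 2 and -1.37 without Y-titled replicate 1.

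Serpina1c, the most abundant member, was also lower in females. It stood at 7722 and 8207 scaled CPM in O-titled males, 9912 and 9526 in Y-titled males, 5079.6 and 4869.9 in O-titled females and 7980.5 and 6184 in Y-titled females. Only the Y-titled female replicate 3 reached into the range of the males. The mean was 6029 ± 1423 in females and 8842 ± 1044 in males (SD, n = 4), and the log2 fold of -0.57 with SE 0.113 was called (adjusted p = 0.00717, edgeR). Its share of the reads of Serpina1a to Serpina1d was 32.9% to 37.8% in males and 25.2% to 31.4% in females, so it was lower in females also relative to its near-identical copies.

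In females Serpina1c was lower in the O-titled livers as well, by a log2 fold of -0.51 with SE 0.144 (adjusted p = 0.043, edgeR). That call was lost in DESeq2 (adjusted p = 0.142) and when any library other than Y-titled replicate 4 was left out, up to 0.492 without Y-titled replicate 3. Over both sexes the fold was -0.40 with SE 0.112 (adjusted p = 0.0566, edgeR). That outcome was the same in 13 of 15 alternative settings, and the others, with all libraries kept, called the gene.

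The remaining Serpina1 copies varied less. Serpina1a and Serpina1b are known as inhibitors of elastase. Serpina1b ran from 5933 to 6187 scaled CPM in O-titled and from 6329 to 7337 in Y-titled libraries, a range of 1.24 times over all 8. All its O-titled libraries were lower than all Y-titled ones, as for 4.62% of tested genes, but the log2 fold of -0.19 with SE 0.102 was not called (adjusted p = 0.391, edgeR). Serpina1a ran from 3910.1 to 5406 in O-titled and from 4948 to 6984 in Y-titled libraries, and Serpina1d from 3906 to 4412 and from 4357 to 5076, with overlap of the title groups in both.

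Neither Serpina1a nor Serpina1d was called in any of the 5 contrasts. Their log2 folds for O-titled over Y-titled were -0.27 with SE 0.118 (adjusted p = 0.252) and -0.23 with SE 0.105 (adjusted p = 0.279) in edgeR, lower in each sex. For females over males Serpina1b had a log2 fold of 0.03 with SE 0.102 and Serpina1d one of 0.05 with SE 0.105, against -5.15 for Serpina1e. The promoter stretches of Serpina1b and Serpina1e printed above, with 6 of 120 bases different, belong to genes with these folds of 0.03 and -5.15.

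**Figure D4:**
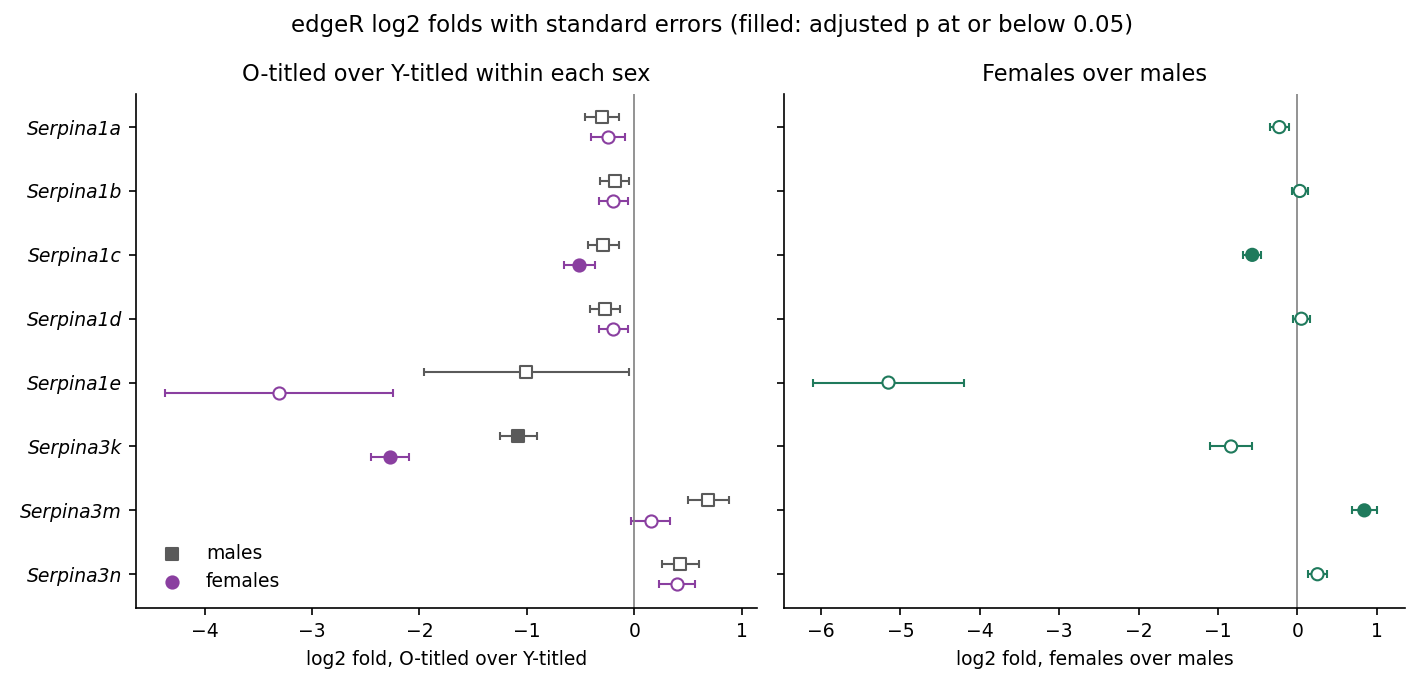
Log2 folds with standard errors from edgeR for the 8 tested members, O-titled over Y-titled within males (grey squares) and females (purple circles) on the left and females over males (green) on the right; filled symbols have an adjusted p of 0.05 or less. Serpina3k is the member called in both sexes, and Serpina1e has the largest folds and the widest errors.

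The Serpina3 total was lower in the O-titled livers of both sexes, and its make-up differed. It took 0.538% and 0.596% of mapped reads in O-titled males and 0.981% and 1.12% in Y-titled males. In females it took 0.261% and 0.337% in the O-titled and 1.08% and 0.872% in the Y-titled. All O-titled libraries were below all Y-titled ones, and the O-titled females were lowest. The merged log2 fold was -1.38 with SE 0.178, being -0.95 with SE 0.161 in males and -1.81 with SE 0.165 in females.

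Serpina3k, which has been studied as a kallikrein-binding protein and is the bulk of this cluster, carried the lower total of the O-titled livers. It stood at 4593 and 5721 scaled CPM in O-titled males, 1649.5 and 2169 in O-titled females, 10108 and 11658 in Y-titled males and 10291 and 8162 in Y-titled females. Every O-titled library was below every Y-titled one, as for 4.62% of tested genes, the lowest Y-titled being 1.43 times the highest O-titled. The O-titled females were below the O-titled males. The means were 3533 ± 1942 in O-titled and 10055 ± 1439 in Y-titled libraries (SD, n = 4).

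The log2 fold of Serpina3k was -1.67 with SE 0.272 (adjusted p = 0.0181, edgeR). The call was lost without O-titled replicate 1 (adjusted p = 0.0523), O-titled replicate 4 (0.0879) or Y-titled replicate 4 (0.0626), all in edgeR, at folds of -1.71, -1.59 and -1.64, without a filter on low counts (0.0502) and without sex as a covariate (0.178). Within each sex it was called, at -1.08 with SE 0.168 in males (adjusted p = 0.00167) and -2.27 with SE 0.174 in females (adjusted p = 1.12e-07, edgeR); leaving out O-titled replicate 1 ended the call in males (0.0773), and no left-out library ended it in females.

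Serpina3k differed more between O-titled and Y-titled livers in females than in males. The difference of the log2 folds was -1.19 with SE 0.236 (adjusted p = 0.0262, edgeR). Leaving out any of O-titled replicates 1, 2 and 3 or Y-titled replicates 1, 2 and 3 took the adjusted p to between 0.0503 and 0.195, with the sign kept in each. In the Y-titled livers, where females stood at 9226 ± 1505 and males at 10883 ± 1096 (SD, n = 2), the sexes overlapped.

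Serpina3n, the acute phase member, had higher values in O-titled livers but did not pass the test. It stood at 329 and 322 scaled CPM in O-titled males, 342 and 425 in O-titled females, 270.0 and 208 in Y-titled males and 254 and 329 in Y-titled females. The O-titled livers were at the upper end, and only Y-titled female replicate 4, at the level of the O-titled males, kept the groups from lying apart. The log2 fold was 0.41 with SE 0.123 and was not called (adjusted p = 0.0715, edgeR). It was 0.43 in males and 0.40 in females, and the call was made without O-titled replicate 3 (adjusted p = 0.0489, edgeR).

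Serpina3m, the copy closest to Serpina3k, was the member higher in females. It stood at 439.7 and 302 scaled CPM in O-titled males and 257 and 202 in Y-titled males. In females it stood at 486 and 631 in the O-titled and 517 and 488 in the Y-titled. Every female was above every male, as for 3.15% of tested genes that were higher in all females, and the log2 fold of 0.84 with SE 0.154 was called (adjusted p = 0.0059, edgeR). For O-titled over Y-titled the log2 fold was 0.69 with SE 0.189 in males (adjusted p = 0.0995) and 0.15 with SE 0.182 in females (adjusted p = 0.766), neither called in edgeR, and without O-titled replicate 2 that in males was 0.93 and called (adjusted p = 0.0206). Over both sexes it was 0.41 with SE 0.153 (adjusted p = 0.175, edgeR), and without O-titled replicate 3 it was called (adjusted p = 0.046, edgeR).

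The balance among the Serpina3 copies therefore differed between the groups. Serpina3k made up 95.0% and 96.5% of the cluster's reads in Y-titled males and 93.0% and 90.9% in Y-titled females. It made up 85.6% and 90.1% in O-titled males and 66.5% and 67.1% in O-titled females, with Serpina3m at 19.6% and 19.5% and Serpina3n at 13.8% and 13.2%. The ratio of Serpina3k to Serpina3n was 24.8 to 56.1 in Y-titled libraries and at most 17.7 in O-titled ones, with 4.82 and 5.10 in O-titled females. Because Serpina3k and Serpina3m share 91.1% of their coding bases and a start site, reads may have been traded between them in counting, and this was not tested.

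Serpina3c was at the edge of detection. It had 6, 1, 4 and 8 reads in O-titled replicates 1 to 4 and 5, 4, 3 and 3 reads in Y-titled replicates 1 to 4, 34 in all. At 1.34 to 7.92 scaled CPM it lay close to the floor of 3 reads, was not tested, and no difference was detectable at this depth.

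The deposited counts are given per transcript. Serpina1c, Serpina1d, Serpina3k and Serpina3n each had reads on 1 transcript. Serpina1a had 65.7% to 70.5% of its reads on ENSMUST00000072876, Serpina1b 64.8% to 69.1% on ENSMUST00000095450, Serpina1e 67.4% to 79.0% on ENSMUST00000122229 and Serpina3m 36.9% to 42.2% on ENSMUST00000101078, the transcript that starts with Serpina3k. These shares were alike in all libraries even though the level of Serpina1e changed 451 times. Many reads were shorter than the longer transcripts. Median read length on ENSMUST00000072876, of 1581 bases, was 1392 to 1406 bases. On ENSMUST00000186166 of Serpina1b, of 1762 bases, it was 999.5 to 1167. The shares therefore also rest on how such reads were assigned, which is not known. In edgeR's test of transcript usage, which called 0% of 1236 genes in either contrast, the lowest unadjusted Simes p of the 4 members was 0.886 for O-titled over Y-titled and 0.914 for females over males.

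Read length was compared next, since a direct RNA read can stop short of the 5′ end. Median read length of Serpina1c was 1389 to 1406 bases in the 8 libraries, for a transcript of 1361 bases, and that of Serpina3k was 1461 to 1672 for a transcript of 2057. Mean read length did not differ by a called amount between O-titled and Y-titled libraries in any of the 8 members tested with limma, with log2 ratios of -0.08 to -0.02 against a median of -0.04 over 4036 genes and a lowest unadjusted p of 0.162. For females over males 0.0743% of genes were called, all shorter, and no member was among them (lowest unadjusted p = 0.135 in limma, Serpina1e). For Serpina3k the O-titled over Y-titled log2 ratio of mean read length was -0.05 with SE 0.039.

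Genes whose levels ran most like a member over the 8 libraries were sought among 2086 genes with a mean of at least 50 scaled CPM, by the root mean square difference of centred log2 values. For Serpina3k, which varied by 0.998 log2 units around its own mean, they were Keg1 at 0.221, Ces3b, a liver carboxylesterase, at 0.234 and G6pc, the glucose-6-phosphatase that releases glucose, at 0.44. Ces3b stood at 208 and 263 scaled CPM in O-titled males, 54.7 and 114 in O-titled females, and 308 to 396 in Y-titled libraries. Serpina3n ran with Yif1a, Tmem50a and Ptp4a1, at differences of 0.0871, 0.129 and 0.131. The Serpina1 total ran with Map1lc3a, Tmem150a and Scp2, at 0.157, 0.163 and 0.176.

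Serpina1e was added to this search after its values were seen. The nearest genes were Hsd3b5 at 0.885, Cyp2d9 at 1.10 and Mup21 at 1.19, against 3.05 for the spread of Serpina1e itself. Hsd3b5 and Cyp2d9 are known as genes of the male mouse liver, and Mup21 is a major urinary protein. Hsd3b5, a steroid dehydrogenase, stood at 49.6 and 71.2 scaled CPM in O-titled males and 324 and 216 in Y-titled males, had no read in either O-titled female and stood at 11.9 and 5.39 in Y-titled females. Like Serpina1e, it was thus lowest in O-titled females, then Y-titled females, then O-titled males. These are descriptions over 8 libraries that share title and sex.

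**Figure D5:**
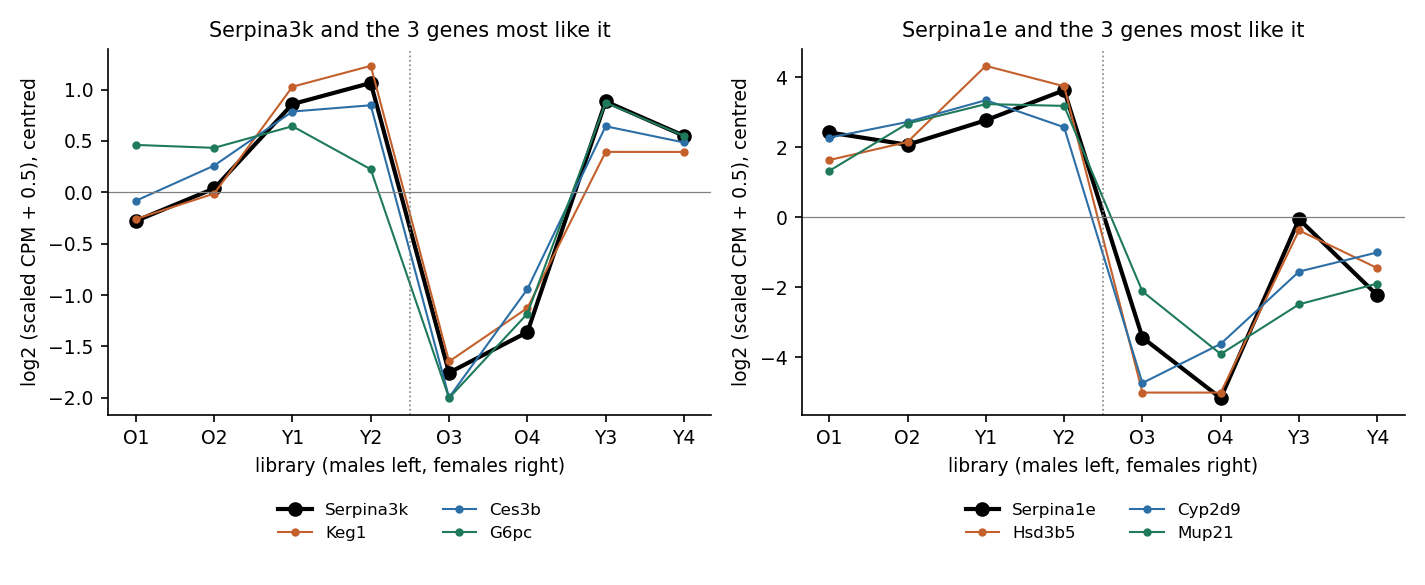
Centred log2 of scaled CPM plus 0.5 per library for Serpina3k (left) and Serpina1e (right), in black, and the 3 genes nearest to each, with males left of the dotted line and lines drawn only to guide the eye. Serpina3k and Ces3b are both lowest in O3 and O4, and Serpina1e and Hsd3b5 are both low in all 4 females and lowest in O3 and O4.

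Of 30 on the list of other serpins, 28 were in the files and 14 were tested. For this list and those below, 2.09% of all tested genes were called higher and 1.92% lower for O-titled over Y-titled. Within females 2.74% were called higher and 2.74% lower, and within males 0.636% and 0.621%. The difference between the sexes was called more positive in females for 0.148% and more negative for 0.237%. For females over males the shares were 1.81% higher and 1.15% lower. For O-titled over Y-titled none of the 14 was called by edgeR, with 5 at an unadjusted p below 0.05, while DESeq2 called 1 and limma voom 2 higher. In females 3 were called higher: Serpina6, which carries corticosteroids in blood, by 1.52 with SE 0.210 (adjusted p = 0.000562), Serpina10, an inhibitor of coagulation factor X, by 0.70 with SE 0.158 (0.0118) and Serping1, the C1 inhibitor, by 0.52 with SE 0.138 (0.0302), all in edgeR. The calls of Serpina10 and Serping1 were lost without O-titled replicate 3, Y-titled replicate 3 or Y-titled replicate 4, and that of Serpina6 was kept without each library in turn.

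Serpina6 stood at 635 and 681 scaled CPM in O-titled females and 209 and 250.4 in Y-titled females, so it was highest in the 2 libraries where Serpina3k was lowest. In males Serpina7, a thyroid hormone carrier, was called higher in O-titled livers by 1.28 with SE 0.228 (adjusted p = 0.00578, edgeR), a call lost without O-titled replicate 1 or Y-titled replicate 2. In females its log2 fold was -0.49 with SE 0.256 and was not called (adjusted p = 0.367, edgeR). The difference between the sexes for Serpina7 was -1.77 with SE 0.343 (adjusted p = 0.0255, edgeR), a call lost when any of 6 libraries was left out.

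Target proteases of serpins gave few calls. Of 15 listed, 7 were tested and 1 was called: Prtn3, proteinase 3 of myeloid cells and a target of alpha-1 antitrypsin, was higher in O-titled females by 3.93 with SE 0.627 (adjusted p = 0.00601, edgeR), with 91 and 53 reads against 6 and 2. The call was lost without Y-titled replicate 4 and with limma voom. Of 12 neutrophil markers Ngp and Ltf had no read, and the summed level was 14.8 to 63.7 scaled CPM in O-titled and 13.9 to 91.9 in Y-titled libraries.

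Acute phase genes, which liver cells raise or lower in inflammation, had the most calls of the gene lists examined for O-titled over Y-titled. For females over males 0 of them were called. Of 25 such genes 22 were tested. For O-titled over Y-titled 4 were called higher, Lcn2 by 3.58, Hamp by 1.15, Itih4 by 0.83 and Apcs by 0.80 (adjusted p from 0.000167 to 0.0130, edgeR). In females 10 were called higher, the largest being Saa1 by 4.73, Orm2 by 4.51, Lcn2 by 4.44, Hp by 1.71 and Itih3 by 1.46; the call of Saa1 was lost when any of 5 libraries was left out and that of Orm2 when any of 7 was. The median log2 fold over the 22 was 0.81 for O-titled over Y-titled, 0.26 in males and 1.25 in females, against -0.001, -0.003 and -0.01 over all genes. In males 3 were called higher, and for 4 the change was called more positive in females than in males. Of all tested genes 2.09% were called higher for O-titled over Y-titled, 2.74% within females and 0.636% within males. A change more positive in females was called for 0.148%. Lcn2, a siderophore-binding protein, stood at 361 and 330.4 scaled CPM in O-titled females, 64.6 and 49.7 in O-titled males and 7.92 to 20.6 in Y-titled libraries; its call over both sexes was lost without Y-titled replicate 4. The O-titled females were thus highest for Lcn2 and lowest for Serpina3k, while Serpina3n, itself an acute phase gene, had a log2 fold of 0.40 in females.

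Of 21 tested genes of cytokine and glucocorticoid signalling, 1 was called for O-titled over Y-titled: Lifr, a receptor chain for leukemia inhibitory factor, was lower by -1.04 with SE 0.168 (adjusted p = 0.00189, edgeR). The median log2 fold of the 21 was -0.07, and 5 had an unadjusted p below 0.05 in edgeR. Hnf4a, a hepatocyte transcription factor, was lower in O-titled females by -0.57 (adjusted p = 0.0304, edgeR), a call lost when any of the 4 female libraries was left out. Fkbp5, a glucocorticoid-induced chaperone, was higher in females than in males by 1.22 (adjusted p = 0.0121, edgeR), a call lost without O-titled replicate 4 or Y-titled replicate 3. Of 7 tested genes of growth hormone signalling, Igf1 was lower by -0.48 with SE 0.11 (adjusted p = 0.0181, edgeR), a call lost without O-titled replicate 3, Y-titled replicate 3 or Y-titled replicate 4. For O-titled over Y-titled the median log2 fold of the 7 was -0.33, against -0.001 over all genes. Of the 7, 4 had an unadjusted p below 0.05 in edgeR. Prlr, the prolactin receptor, was higher in females by 1.53 with SE 0.166 (adjusted p = 1.41e-05, edgeR). Ghr, the growth hormone receptor, was lower in females by -0.39 with SE 0.102 (adjusted p = 0.0427, edgeR), a call lost when any of the 8 libraries was left out. Of 23 genes for folding and export of glycoproteins, which secreted serpins pass through, 2 were called lower, Hspa5, the chaperone BiP, by -0.71 with SE 0.133 (adjusted p = 0.00417, edgeR) and Syvn1 by -0.77 with SE 0.196 (adjusted p = 0.0306, edgeR). The call of Syvn1 was lost when any of 5 libraries was left out. For O-titled over Y-titled the median log2 fold of the 23 was -0.22, and 8 had an unadjusted p below 0.05 in edgeR.

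Markers of macrophages stood higher at the median in O-titled livers, where Serpina3k was lower, with few calls. The median log2 fold of the 13 tested Kupffer cell and macrophage markers was 0.68, against -0.001 over all genes, and 7 had an unadjusted p below 0.05 in edgeR. Among them Ctss was called higher in O-titled livers, by 0.70 with SE 0.183 (a call lost when any of 6 libraries was left out), and the summed level of the 14 on the list was 659.6 to 1841 scaled CPM in O-titled and 776 to 973 in Y-titled libraries. Among 8 tested stellate cell and fibroblast markers Dcn was called higher, by 0.58 with SE 0.122, 4 had an unadjusted p below 0.05 and the median was 0.13. Between the sexes Lum, another marker of that list, was called higher in females by 1.13, a call lost when any of the 8 libraries was left out. Of the 8 hepatocyte markers none was called for O-titled over Y-titled by edgeR, with 3 at an unadjusted p below 0.05, and in females Ttr was called lower by -0.55 and Apoc3 by -0.66, against -2.27 for Serpina3k. In females the median of the 8 hepatocyte markers was -0.28 and 6 had an unadjusted p below 0.05. The call of Apoc3 was lost when any library but O-titled replicate 4 was left out, and that of Ttr without O-titled replicate 4, Y-titled replicate 3 or Y-titled replicate 4. Of 9 tested endothelial markers Fcgr2b was called higher by 0.62 (a call lost when any of 6 libraries was left out), 1 cholangiocyte marker was tested and not called, and none of the lymphocyte or neutrophil markers had enough reads to be tested. Their part in the difference of Serpina3k was not tested.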

How the data were processed

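The 8 livers were read by direct RNA sequencing on MinION flow cells after poly(A) selection, per the labels' protocols. The submitters' processing notes name minimap2 2.24, mm10 and DESeq2; the counting tool, the annotation and the handling of reads that fit several copies are not given in the sources used here. The deposited files hold the authors' read counts per transcript and library, whole numbers that are not normalized, with read lengths. Counts were summed per gene (27335 of 27453 genes had a symbol). Genes passed edgeR's filter at a minimum count of 10, libraries were scaled by TMM, and edgeR 4.0.16 fitted title with sex as a covariate, or the 4 groups of title and sex for changes within a sex and their difference. DESeq2 1.42.0 and limma 3.58.1 served as alternatives, beside other scalings, no filter, a replicate block, no sex covariate and leaving out each library in turn. Fits were tested on simulated data.

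Libraries held 545171 to 2593200 mapped reads; floors cover counting error only. Named genes are all members, called genes of the lists (at most the 5 with the largest change in a list) and, for likeness, the 3 nearest genes to Serpina3k, Serpina3n and the Serpina1 total, with Serpina1e added after its values were seen. The members and lists were chosen with earlier results of these data known. The DNA hydroxymethylation named in the series title was not analysed here.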

Additional observations from a re-analysis of the deposited data

Results flagged for a closer look

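Among 22 groups of 4 libraries examined, where chance alone sets apart the highest or lowest library in about 1 of 20, the O-titled replicate 4, a female, stood above the other O-titled libraries for Serpina1d, at 4412 scaled CPM against 3906 to 3923. The Y-titled replicate 2, a male and the shallowest library, stood above the other Y-titled libraries for Serpina3c, at 7.92 scaled CPM, which rests on 4 reads. The log2 fold of Serpina3k for O-titled over Y-titled livers differed between the sexes by -1.19 in females minus males (adjusted p = 0.0262, edgeR); the call was lost when any of 6 libraries was left out.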

How the results depend on the processing

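Leaving out a library in the within-sex fits leaves a group with 1 library, which is assumed to vary like the others. For O-titled over Y-titled, 1 member was called, against 2 with limma voom, 3 without a filter on low counts, 0 without the sex covariate (edgeR, with 134 genes called in all) and 0 to 3 with a library left out. In males 2 were called without a filter and 0 to 2 with a library left out, and in females 1 to 2 with a library left out. For the difference between the sexes 0 to 1 was called with a library left out. For females over males DESeq2 called 4, and leaving out a library gave 2 to 3. The fold of the Serpina1 total ran from -0.66 to -0.28 in males and its difference between the sexes from -0.048 to 0.34 with a library left out; the Serpina3 total for females over males was -0.34 as percent of mapped reads. Signs turned with a library left out for Serpina3m in females (-0.024 to 0.34), for Serpina1b between the sexes (-0.0020 to 0.072) and for the difference between the sexes of Serpina1a (-0.12 to 0.24), Serpina1b (-0.11 to 0.10), Serpina1d (-0.023 to 0.19) and Serpina3n (-0.24 to 0.18), none of which was called; the causes were not tested. Over all genes, 271 were called for O-titled over Y-titled, 600 without a filter, 176 without Y-titled replicate 3 and 154 without Y-titled replicate 4; in males 85, against 211 without a filter and 54 with DESeq2; in females 370, against 184 with DESeq2.

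Replicate numbers lie within a sex. After removal of title and sex means, deviations of same-numbered libraries correlated at -0.263 in males and 0.00936 in females. With 2 libraries in each group, swapping the numbers within a group would turn the sign. The values therefore cannot show whether the numbers pair the libraries. With the replicate block 184 genes and 1 member were called for O-titled over Y-titled; the difference between the sexes of Serpina3k had an adjusted p of 0.0539 (edgeR), leaving 0 members called, Serpina1c in females was no longer called (0.103) and Serpina1e in females was (0.00225).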
